A study of Homo sapiens with 5 samples.

Results

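The forkhead genes described here are the transcription factor genes named FOX, a letter and a number, other than FOXO1, FOXO3, FOXO4 and FOXM1. The name rule found 39 genes among the 27992 gene names of the count table, and all 39 also have a row in the table of TPM (transcripts per 1000000, corrected for length). RNA was sequenced from U2OS, a human osteosarcoma cell line, in 5 libraries with 1 library per group. The study asked how the expression level of E2F1, an activator of cell cycle genes that can also trigger apoptosis, relates to what a cell does. One library came from parental U2OS cells without a construct. The other 4 came from U2OS pTRIPZ-YFP-ER-E2F1 cells, which carry YFP joined to an oestrogen receptor part and E2F1 in a vector switched on by doxycycline. A flow cytometer parted those cells by YFP signal into 4 fractions, YFP-negative, YFP-low, YFP-medium and, with the brightest signal, YFP-high. Per the labels, all 5 groups, the parental cells included, were grown in 8% fetal bovine serum and given 500 ng/ml doxycycline for 48 h and then 90 nM OHT, the ligand that frees an oestrogen receptor fusion, for a further 20 h. The sources used here do not say whether the construct line is 1 clone. YFP-negative cells therefore carried the construct and saw both drugs, and differed from the other fractions by their YFP signal.

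Forkhead factors share a winged-helix DNA-binding domain, whose recognition helix lies in the major groove and reads a short A/T-rich core. FOXA factors are pioneer factors that open chromatin in liver and gut endoderm, FOXC, FOXD and FOXF factors act in mesoderm and mesenchyme, and FOXJ1 is the master regulator of motile cilia. FOXK, FOXN2, FOXN3, FOXJ2 and FOXJ3 are made in most cell types, and FOXP factors act as repressors in lymphocytes, brain and epithelia. The coding bases of the recognition helix are shown for 6 members, from GENCODE 29 transcripts of GRCh38, because they show what the family shares and where its branches differ. The capitals mark 7 codons, from the conserved asparagine to the conserved leucine.

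FOXC1: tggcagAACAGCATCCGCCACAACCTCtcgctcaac

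FOXD1: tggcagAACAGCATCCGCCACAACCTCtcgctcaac

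FOXK1: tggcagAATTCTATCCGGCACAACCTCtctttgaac

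FOXF2: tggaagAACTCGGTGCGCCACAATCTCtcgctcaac

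FOXA3: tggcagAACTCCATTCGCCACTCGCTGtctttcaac

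FOXP4: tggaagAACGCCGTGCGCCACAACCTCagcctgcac

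All 36 bases of FOXD1, on chromosome 5, were the same as those of FOXC1, on chromosome 6. FOXK1, on chromosome 7, shared 28 of the 36 bases but encodes the same 12 residues. FOXF2, on chromosome 6, and FOXA3, on chromosome 19, encode 10 of the 12 residues of FOXC1, and FOXP4, on chromosome 6, encodes 8. The stretch was looked for in 29 members and found in 26, of which 11 encode all 12 residues of FOXC1, FOXC1 itself included. RNA levels of genes with the same helix differed widely, as the values below show for FOXC1, FOXD1 and FOXK1.

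Gene reads per library ranged from 70715003 to 76525158. Levels are given as counts per 1000000 gene reads (CPM) after scaling between libraries, and values for the 5 libraries are marked parental, negative, low, medium and high. E2F1, read from the construct and the cells' own gene together, stood at 86.1 CPM (parental), 106 (negative), 163 (low), 361 (medium) and 996 (high), in the order of the gates. Of 18 bone and mesenchyme markers expected of U2OS, 13 were above 1 TPM in every library, and their summed TPM fell from 5720 in the parental library to 3924 in YFP-negative and 3313 in YFP-high. Summed TPM of 10 epithelial markers ranged from 604 to 811 and that of 8 endothelial markers from 7.22 to 9.25, while that of 9 leukocyte markers was 9.67 in YFP-negative and 77.4 in YFP-high, and that of 10 neuron markers ranged from 89.6 to 152. Of the leukocyte markers 3 reached 1 CPM, and the rise lay mostly in IKZF1, which had 4.46 CPM in YFP-negative and 204 in YFP-high. The part of these markers in the results on forkhead genes was not tested. In these sorted bulk libraries, fewer cells with a transcript and less of it per cell cannot be told apart.

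With rising YFP the forkhead genes fell into a few sets. FOXJ1 was more than 2-fold above YFP-negative already in YFP-low. FOXF1, FOXF2, FOXK1 and FOXP4 passed 2-fold in YFP-medium and stood higher still in YFP-high. FOXA2, FOXA3, FOXC1 and FOXH1 were called over YFP-negative in YFP-high but not in YFP-medium, and FOXS1 was the 1 member called lower. A gene is called higher or lower here when its log2 ratio, with 0.5 CPM added to both levels, passed 2-fold and the 95% counting interval of its fold excluded no change. With 1 library per group no test between conditions is possible, so intervals cover counting error only, and folds are given without the added 0.5 CPM.

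In YFP-high against YFP-negative, 10 of the 39 members were called higher (FOXA2, FOXA3, FOXC1, FOXF1, FOXF2, FOXH1, FOXJ1, FOXK1, FOXP2 and FOXP4) and 1 lower (FOXS1). The called members made up 28.2% of all 39, while 17.7% of all 27992 gene names were called, 11.5% higher and 6.19% lower. At least 1 CPM in at least 1 library was reached by 20 members, and among the 15109 genes that reached it 20.5% were called higher and 11.3% lower. FOXH1 and FOXP3 reached that level in YFP-high only, and FOXP2 only in YFP-low, YFP-medium and YFP-high, so a share over the 20 is no support for a trend of the family. The median log2 ratio of all 39 members was 0.09, against 0 for all gene names. The counts of the gene lists below are therefore over every listed gene with a row, with or without 1 CPM, in YFP-high against YFP-negative. Scaling by total gene counts left 9 members higher and 1 lower, while the split over all genes went from 3090 higher and 1707 lower to 2415 higher and 2865 lower.

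The smaller steps showed where the calls arose. Counts and shares in this paragraph are over the 20 members and the 15109 genes that reached 1 CPM in at least 1 library. FOXH1 and FOXP2 reached it only in libraries where they were high, so these counts are no support for a trend of the family. In YFP-negative against parental, 2 members were higher (FOXJ1 and FOXA3) and 1 lower (FOXS1), where 2.15% of the 15109 genes were higher and 2.93% lower. FOXJ1 was the 1 member called in YFP-low against YFP-negative, higher, where 2.11% of genes were higher and 0.0463% lower. In YFP-medium against YFP-negative, 6 members were higher (FOXF1, FOXF2, FOXJ1, FOXK1, FOXP2 and FOXP4) and FOXS1 was lower, where 9.76% of genes were higher and 2.21% lower. From YFP-low to YFP-medium, 3 members were higher (FOXF1, FOXF2 and FOXJ1) and 0 lower, where 2.71% of genes were higher and 0.185% lower. From YFP-medium to YFP-high, 5 were higher (FOXA3, FOXC1, FOXF1, FOXF2 and FOXH1) and 0 lower, where 9.25% of genes were higher and 1.33% lower. In YFP-high against parental, 11 of these members were higher, the 10 named above and FOXN2, and FOXS1 was lower, where 21.3% of genes were higher and 14.9% lower. FOXA1, under 1 CPM in every library, was also called higher in that comparison. The comparisons of the fractions with YFP-negative share that library, so they are not independent of each other.

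**Figure D1:**
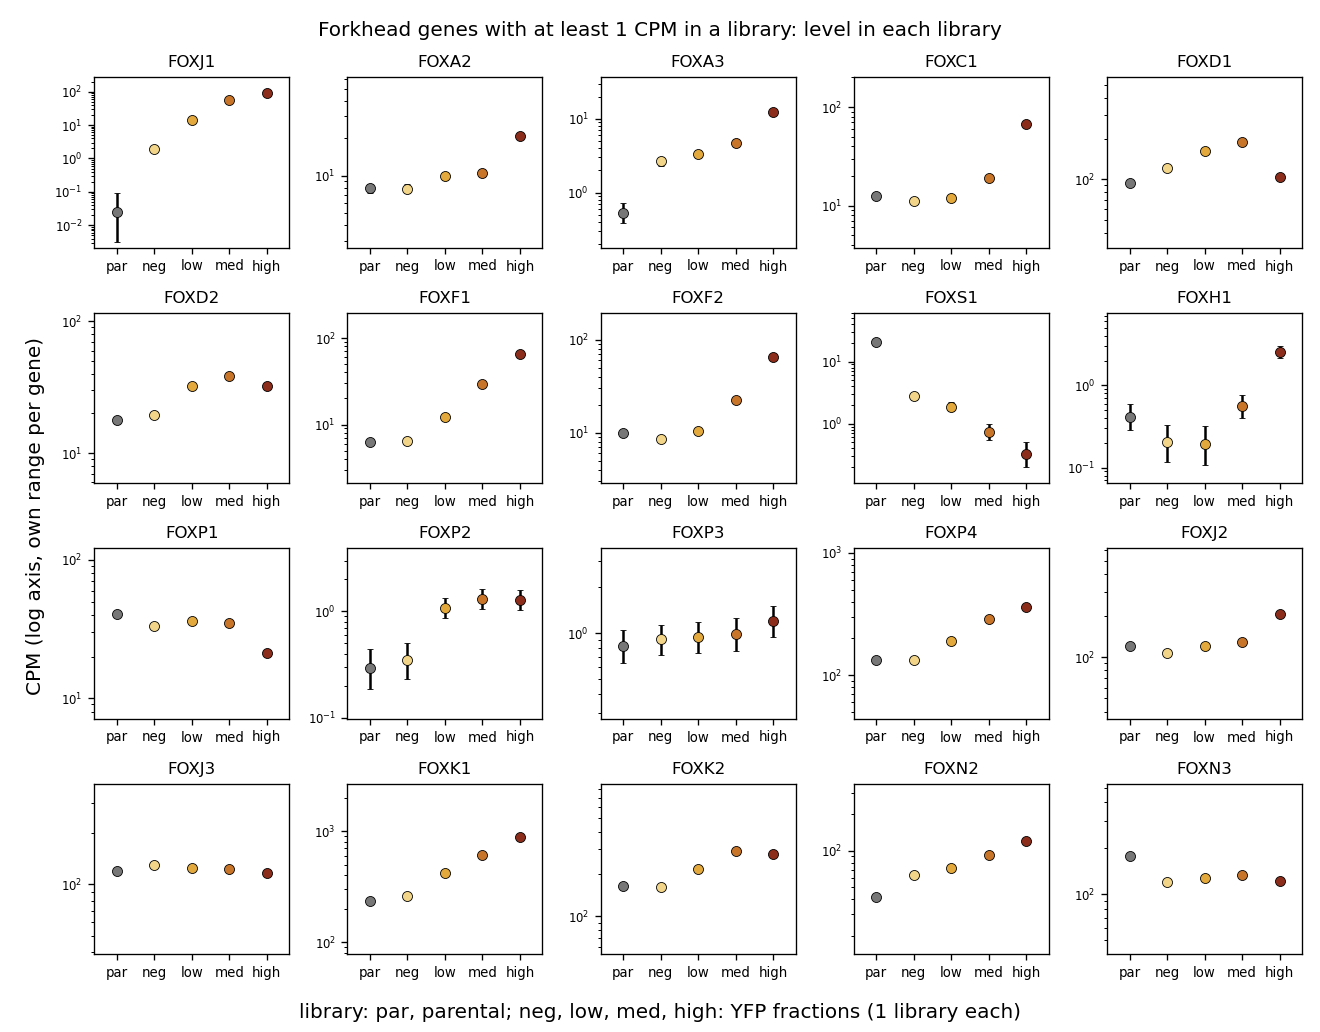
Level of the 20 forkhead genes with at least 1 CPM in a library, in CPM on a log axis with its own range per gene, in the parental library (par) and the sorted fractions (neg, low, med, high). Points are single libraries and bars are 95% counting intervals, often smaller than the point. FOXJ1 climbs from 0.0254 to 90.0 CPM, FOXS1 drops from 20.4 to 0.329, and FOXJ3 stays between 116 and 130.

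**Figure D2:**
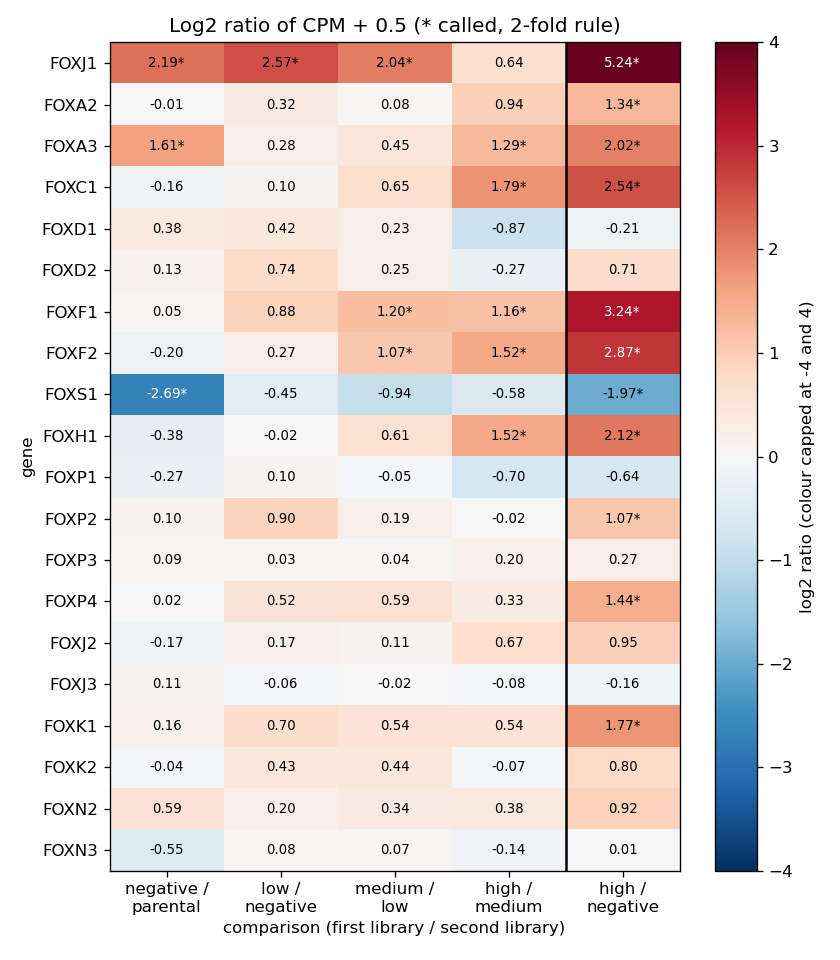
Log2 ratio of CPM + 0.5 of the same 20 genes (rows) for 4 consecutive steps and, right of the line, for YFP-high against YFP-negative (columns). Red is higher and blue lower in the first library named, and a star marks a called ratio. The FOXJ1 stars lie in the first 3 steps, those of FOXF1 and FOXF2 in the last 2, and those of FOXC1 and FOXH1 in the step from YFP-medium to YFP-high.

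FOXJ1, which switches on the genes that build motile cilia, had the widest range of the family. It had 2 reads (parental), 158 (negative), 1059 (low), 3908 (medium) and 5752 (high), or 0.0254, 1.89, 13.7, 57.7 and 90.0 CPM. Every step was beyond counting error, and none of the libraries had the same level as another. The ratio of YFP-negative to parental was 74.7 (20.3 to 622, resting on the 2 parental reads), a step over which E2F1 differed 1.23-fold (1.19 to 1.27). YFP-medium was 4.21-fold above YFP-low (3.94 to 4.51), and YFP-high 1.56-fold above YFP-medium (1.5 to 1.63), a step that was not called. On the log2 scale FOXJ1 had covered 49.0% of its distance from YFP-negative to YFP-high in YFP-low and 87.8% in YFP-medium. With 2 CPM added in place of 0.5, its log2 ratio of YFP-negative to parental went from 2.19 to 0.94 and was no longer called. FOXJ1 overlaps the antisense RNA RNF157-AS1 in RefSeq, and FOXK2, FOXN3, FOXP1 and FOXP4 overlap antisense RNAs named after them. Without a known strand setting, reads of such pairs cannot be told apart.

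Genes of the motile cilium, the setting in which FOXJ1 is best known, were mostly not called. Of 33 such genes 5 were higher and 0 lower, where 11.5% of all gene names were higher and 6.19% lower. The median log2 ratio of the 33 was 0.10, and that of the 21 that reached 1 CPM was 0.03, or -0.20 when libraries were scaled by total gene counts. DNAI1, an intermediate chain of the outer dynein arm, had 0.672, 0.599, 0.737, 4.52 and 18.1 CPM from parental to YFP-high. It was 30.2-fold higher in YFP-high than in YFP-negative (22.8 to 40.9), and was not called in YFP-low, where FOXJ1 was called. The other 4 higher genes were DNAAF1 and ZMYND10, which help to assemble dynein arms, CCDC40, which sets the axonemal repeat, and ROPN1L, a radial spoke protein. ZMYND10 had 1.86 CPM (negative), 4.29 (low), 7.10 (medium) and 7.23 (high). Of the 21 cilium genes that reached 1 CPM, it was the 1 called in YFP-low against YFP-negative. Of 18 listed regulators of cilium formation, not all of them particular to multiciliated cells, 5 were higher (MYB, CCNO, TP73, RFX2 and STIL) and 1 was lower (RFX5). GMNC had at most 16 reads in a library. CCDC67 had 5.03 CPM (parental), 0.983 (negative) and 0.469 (high). RFX2, a partner of FOXJ1 on cilium genes, had 18.7 CPM (negative), 50.9 (low), 79.5 (medium) and 69.9 (high). Of 26 primary cilium and transport genes, 2 were higher (IFT81 and IFT122) and 2 lower (BBS7 and TTC8), with a median log2 ratio of -0.50. All 26, and 15 of the 18 regulators, reached 1 CPM, and of all genes that did, 20.5% were higher and 11.3% lower.

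The other members known from ciliated cells and ionocytes were nearly silent. FOXN4, which acts in multiciliated cells and retina, had at most 5 reads in a library. FOXI1, the ionocyte factor, and FOXI3, a factor of ectodermal appendages, had 0 reads in all 5 libraries, where 3 reads, the number a count of 0 allows, would be 0.0360 CPM in YFP-negative and 0.0469 in YFP-high. FOXI2 had 16 reads in the parental library and 2, 4, 3 and 9 in the fractions. Of 10 ionocyte genes 1 was higher and 0 lower, where 11.5% of all gene names were higher and 6.19% lower. It was CA2, a carbonic anhydrase, at 8.45-fold (7.86 to 9.10).

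Among the FOXA pioneer factors, FOXA2 and FOXA3 rose and FOXA1 stayed under 1 CPM. FOXA3, best known from liver, had 0.533 CPM (parental), 2.66 (negative), 3.33 (low), 4.72 (medium) and 12.3 (high). Each library was above the one before beyond counting error. YFP-negative was 5.00-fold above parental (3.58 to 7.13), and YFP-high 4.62-fold above YFP-negative (3.97 to 5.38). With 2 CPM added in place of 0.5, the first of these log2 ratios went from 1.61 to 0.88 and was no longer called. FOXA2, a factor of endoderm and floor plate, had 7.90, 7.86, 9.94, 10.6 and 20.7 CPM in the same order. Parental and YFP-negative did not differ beyond counting error, nor did YFP-low and YFP-medium, and YFP-high was 2.63-fold above YFP-negative (2.40 to 2.90). FOXA1, known from breast and prostate, had 5 reads in the parental library and 23, 44, 28 and 50 in the fractions, which is 0.782 CPM in YFP-high. Its rise from parental to YFP-high was called, at 12.3-fold (4.95 to 39.7, resting on the 5 parental reads).

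Most other endoderm genes were not called. Of 25 liver and gut endoderm genes 6 were higher (CEBPA, PDX1, ONECUT1, ONECUT2, GATA6 and, under 1 CPM in every library, TAT) and 1 lower (GATA4), where 11.5% of all gene names were higher and 6.19% lower. The median log2 ratio of the 25 was 0.04. CEBPA, a liver and fat factor, was 11.1-fold higher (9.74 to 12.8). PDX1, the pancreas factor, was 17.5-fold higher (11.2 to 28.7), at 0.252 CPM in YFP-negative and 4.40 in YFP-high. LINC00261, a long RNA transcribed beside FOXA2, had 7 reads in YFP-negative and 69 in YFP-high, a ratio of 12.9 (5.92 to 33.2). Of 5 Groucho and TLE corepressors, which FOXA factors bind, 3 were higher and 0 lower (TLE1, TLE2 and TLE3), TLE3 at 4.61-fold (4.49 to 4.73). Of the 5, 4 reached 1 CPM, and of all genes that did, 20.5% were higher and 11.3% lower.

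FOXC1, FOXF1 and FOXF2, factors of mesenchyme and blood vessels, had the largest rises over YFP-negative after FOXJ1 among members above 5 CPM in a library. FOXF1, which patterns lung and gut mesenchyme, had 6.26 CPM (parental), 6.50 (negative), 12.3 (low), 29.1 (medium) and 65.5 (high). Parental and YFP-negative did not differ beyond counting error, and every later step did. YFP-high was 10.1-fold above YFP-negative (9.22 to 11.1), and 64.2% of the log2 distance had been covered in YFP-medium. FOXF2, its paralog, had 9.91, 8.54, 10.4, 22.5 and 65.3 CPM, and YFP-high was 7.66-fold above YFP-negative (7.07 to 8.30). Its log2 ratio of YFP-medium to YFP-low, 1.07, was no longer called with total gene counts (0.96) or with 2 CPM added (0.98). FOXC1, needed for eye and skeletal development, had 12.5, 11.2, 12, 19.1 and 67.1 CPM. YFP-negative and YFP-low did not differ beyond counting error, and YFP-high was 3.52-fold above YFP-medium (3.31 to 3.75) and 6.01-fold above YFP-negative (5.60 to 6.46). FOXC1 had covered 29.4% of its log2 distance in YFP-medium, less than FOXF1 and FOXF2, at 64.2% and 47.0%.

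FOXQ1, FOXF2 and FOXC1 are neighbours on chromosome 6 in RefSeq's order of protein-coding genes, and FOXQ1 had 0 reads in all 5 libraries. GMDS, the next gene past FOXC1, had 11 CPM in YFP-negative and 13 in YFP-high. FOXC2 and FOXL1, which like FOXF1 are mesenchyme factors, had at most 2 and 1 reads in a library. Around the 11 called members, 16 neighbouring genes that are no members reached 1 CPM, and 3 of these were called higher and 0 lower. The 3 were PAX1 beside FOXA2, RNF157 beside FOXJ1 and MDFI beside FOXP4, where 20.5% of genes at that level were higher and 11.3% lower. The neighbours were looked up after the members' values were seen.

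FOXD1 and FOXD2 followed another course, with their top in YFP-medium. FOXD1, a factor of kidney stroma, had 93 CPM (parental), 121 (negative), 162 (low), 190 (medium) and 104 (high). All 5 levels differed beyond counting error, and YFP-high lay 1.83-fold under YFP-medium (1.77 to 1.88), which did not pass 2-fold. FOXD2 had 17.7, 19.3, 32.5, 38.8 and 32.1 CPM, and its YFP-low and YFP-high levels did not differ beyond counting error. FOXD2 in YFP-medium against YFP-negative lay just under the size rule, at 2.00-fold (1.88 to 2.13) and a log2 ratio of 0.98. Neither gene was called against YFP-negative or between neighbouring fractions, but both were called higher in YFP-medium against the parental library, at log2 ratios of 1.03 for FOXD1 and 1.11 for FOXD2. FOXE1, FOXE3, FOXB1 and FOXL2 had at most 2 reads in a library, and FOXD3, the neural crest factor, had 0 in all.

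FOXS1, a factor of pericytes and smooth muscle, was the only member called lower in any of the 7 comparisons. It had 1612 reads (parental), 229 (negative), 145 (low), 50 (medium) and 21 (high), or 20.4, 2.75, 1.87, 0.738 and 0.329 CPM. Every library was under the one before beyond counting error. The largest step lay between parental and YFP-negative cells, at 7.45-fold lower (6.48 to 8.59), and YFP-high was a further 8.35-fold under YFP-negative (5.34 to 13.8). With 2 CPM added, YFP-medium against YFP-negative was no longer called (log2 ratio -0.79). Over the same first step COL1A1, the main bone collagen, went from 3271 to 1254 CPM, and its part in the FOXS1 result was not tested. FOXS1 overlaps DUSP15 in RefSeq, and the sources do not give the strand setting of the counting. Reads shared by the pair may have been counted to either gene or set aside as ambiguous. DUSP15 had 1.67 CPM in YFP-negative and 1.74 in YFP-high.

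Of 19 mesenchyme transcription factors, 6 were higher and 1 was lower, where 11.5% of all gene names were higher and 6.19% lower. The median log2 ratio of the 19 was 0.59. PAX1, a sclerotome factor, was 21.7-fold higher (16.7 to 28.5) and SNAI1, a driver of mesenchymal change, 4.91-fold higher (4.51 to 5.34). HAND2 was 3.67-fold higher. SNAI2 was 3.02-fold higher, but was called lower in YFP-negative (8.37 CPM) than in parental cells (19.1 CPM). At 25.2 CPM in YFP-high, SNAI2 was not called against parental (log2 ratio 0.39). The lower gene was PRRX1, at 3.73-fold (2.81 to 5.02), and TWIST1 had 0 reads in all 5 libraries. Beside the same shares of all gene names, of 15 neural crest genes, the setting of FOXD3, 6 were higher and 1 was lower. Of 15 granulosa and gonad genes, the setting of FOXL2, 5 were higher and 2 lower. Some lists share genes, so their counts are not separate. SOX9 was called lower in both the neural crest and the gonad list, and GATA4 in both the endoderm and the gonad list. SNAI2 was called higher in both the mesenchyme and the neural crest list. Of 10 lens genes, the setting of FOXE3, 2 were higher and 1 lower, and of 10 thyroid genes, the setting of FOXE1, 0 were called.

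FOXH1, the partner of SMAD proteins in Nodal signalling, was read mainly in YFP-high. It had 33 reads (parental), 17 (negative), 15 (low), 38 (medium) and 163 (high), which is 2.55 CPM at the top. YFP-high was 12.5-fold above YFP-negative (7.58 to 22.0) and 4.55-fold above YFP-medium (3.18 to 6.66), and the latter was no longer called with 2 CPM added (log2 ratio 0.83), as was its rise over parental (0.91). Parental and YFP-medium did not differ beyond counting error. FOXH1 overlaps KIFC2, which had 65.2 CPM in YFP-negative and 89.8 in YFP-high. The counting set aside 4.06% to 4.33% of reads per library as ambiguous. Reads shared with KIFC2 may therefore be missing from the FOXH1 count, or a part of that count may belong to KIFC2. Of 17 Nodal pathway genes, 5 were higher and 0 lower, where 11.5% of all gene names were higher and 6.19% lower. The median log2 ratio of the 17 was 0.13. ACVR1C, a Nodal receptor, was 24.3-fold higher (21.3 to 27.8), ACVR1B, another type I receptor, 4.89-fold (4.70 to 5.09), and GSC, a classic target, 7.67-fold (5.29 to 11.5). NODAL itself had 19 reads in YFP-negative and 9 in YFP-high, and LEFTY1 had 3 and 5. Neither was called, and 3 of the 17 genes had no read in any library. FOXR1 had 0 reads, and FOXR2, a factor silent in most adult tissues, had at most 7.

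FOXB2 had 0 reads (parental), 1 (negative), 0 (low), 1 (medium) and 20 (high), still only 0.313 CPM. FOXD4 had 24, 30, 29, 52 and 33 reads. It has near-identical copies, the FOXD4-like genes, so its reads may be split among them and its level is uncertain. FOXN1, the master factor of thymic epithelium, had 1 read in YFP-low and 0 elsewhere. Of 13 thymic epithelium genes, 5 were higher and 0 lower, where 11.5% of all gene names were higher and 6.19% lower. DLL4, the Notch ligand of the thymus, was among the 5, at 0.0959 CPM in YFP-negative and 5.59 in YFP-high. 

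The FOXP genes went different ways. FOXP4 had 132 CPM (parental), 134 (negative), 192 (low), 289 (medium) and 364 (high). Parental and YFP-negative did not differ beyond counting error, and YFP-high was 2.72-fold above YFP-negative (2.66 to 2.78). In YFP-medium its log2 ratio of 1.11 was no longer called with total gene counts (0.89) or on the TPM scale (0.99). FOXP1 had 40.5, 33.5, 36.1, 34.9 and 21.3 CPM, so that YFP-high was lowest and lay 1.58-fold under YFP-negative (1.48 to 1.68), which was not called. FOXP2, the gene tied to speech, had 23 reads (parental), 29 (negative), 84 (low), 89 (medium) and 82 (high). Its 3 YFP-positive libraries did not differ beyond counting error, and YFP-high was 3.69-fold above YFP-negative (2.39 to 5.85). The FOXP2 calls were lost with total gene counts, at log2 ratios of 0.98 in YFP-medium and 0.92 in YFP-high, and with 2 CPM added, at 0.50 and 0.48. FOXP3, the regulatory T cell factor, had 65 to 77 reads, no neighbours in its order of levels differed beyond counting error, and it overlaps CCDC22.

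Of 17 corepressor genes that FOXP factors bind, 3 were higher (CTBP2, GATAD2A and RBBP7, at 2.40-fold to 2.63-fold) and 0 lower, where 11.5% of all gene names were higher and 6.19% lower. Of the 17, 16 reached 1 CPM, and of all genes that did, 20.5% were higher and 11.3% lower. Of 14 lymphocyte genes, 2 were higher (IKZF2 and LAG3) and 1 was lower (IL7R). IL7R, the interleukin 7 receptor, fell by 1.45 on the log2 scale.

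The broadly expressed members ranged from a steady rise to no change. FOXK1, which acts in metabolism and as a brake on autophagy genes, had 233 CPM (parental), 260 (negative), 422 (low), 614 (medium) and 891 (high). Each library was above the one before beyond counting error, and YFP-high was 3.42-fold above YFP-negative (3.37 to 3.48). FOXK2, its paralog, had 164, 160, 215, 293 and 279 CPM, with the top in YFP-medium, and was 1.74-fold above YFP-negative in YFP-high (1.70 to 1.78), which was not called. Of 16 FOXK partner genes, 3 were higher and 3 lower, where 11.5% of all gene names were higher and 6.19% lower. All 16 reached 1 CPM, and of all genes that did, 20.5% were higher and 11.3% lower. ASXL3, of the Polycomb deubiquitinase, was 14.5-fold higher (11.9 to 17.9), and OGT, SIN3B and MBD5 were the 3 lower ones.

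FOXN2 had 42.0, 63.2, 72.5, 91.9 and 120 CPM from parental to YFP-high, each above the one before beyond counting error. It was 1.89-fold above YFP-negative in YFP-high (1.83 to 1.96), under the size rule, and 2.85-fold above parental (2.74 to 2.97), which was called. FOXN3, a repressor tied to the DNA damage checkpoint, was highest in the parental library, at 177 CPM, and had 121, 127, 134 and 122 in the fractions. Its log2 ratio of YFP-high to YFP-negative was 0.01, or -0.26 with total gene counts. Of 6 FOXN2 and FOXN3 partner genes, 2 were higher and 0 lower, where 11.5% of all gene names were higher and 6.19% lower. The 2 were KAT2B at 3.68-fold (3.51 to 3.87) and PIM2 at 2.41-fold (1.89 to 3.09). All 6 reached 1 CPM, and of all genes that did, 20.5% were higher and 11.3% lower.

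FOXJ2 and FOXJ3, the relatives of FOXJ1 made in most cells, did not share its course. FOXJ2 had 120, 107, 120, 130 and 207 CPM, and YFP-high was 1.94-fold above YFP-negative (1.89 to 1.99), just under the size rule at a log2 ratio of 0.95. FOXJ3 had 121, 130, 125, 123 and 116 CPM, and its highest library was 1.12-fold above its lowest. Of the members called in YFP-high against YFP-negative, FOXP2 lay nearest to the threshold, at a log2 ratio of 1.07.

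**Figure D3:**
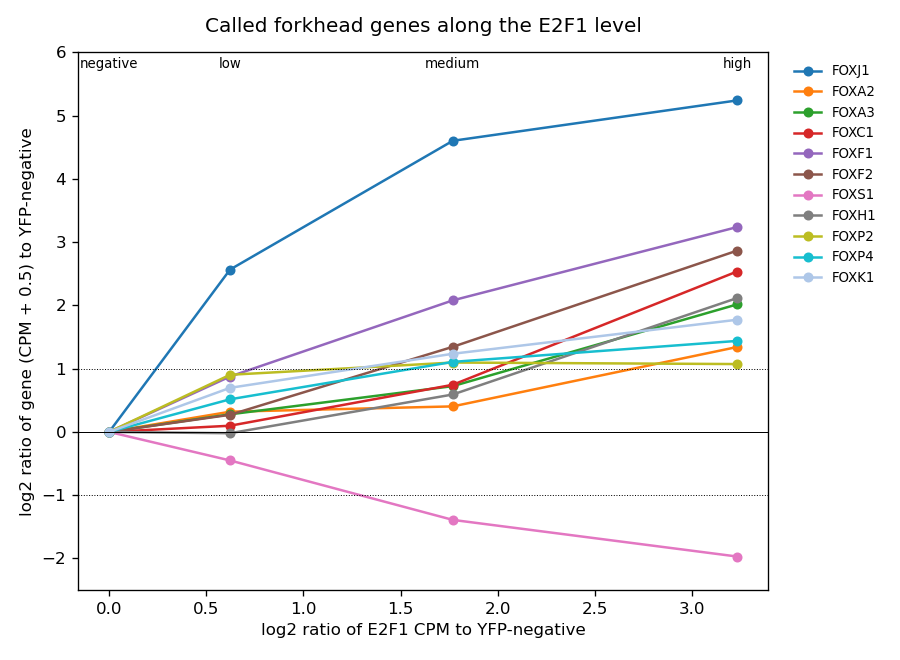
Log2 ratio to YFP-negative of the 11 called forkhead genes (vertical axis, with 0.5 CPM added) against the log2 ratio of E2F1 CPM to YFP-negative (horizontal axis), for the 4 sorted libraries. Dotted lines mark 2-fold. FOXJ1 is at 2.57 in YFP-low, FOXC1 at 0.10 in YFP-low and 2.54 in YFP-high, and FOXS1 falls at each step.

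Set side by side on the length-corrected TPM scale, the members' summed RNA was 577 TPM (parental), 571 (negative), 728 (low), 927 (medium) and 1102 (high). FOXD1 was the most abundant member in the first 4, with 20.4%, 27.1%, 27.7% and 24.2% of the sum. In YFP-high FOXK1 was first, with 15.2%, and FOXD1 held 11.1%. FOXJ1 made up 0.00466% of the family's TPM in the parental library and 8.00% in YFP-high, where it ranked as number 5 with 88.2 TPM. FOXF1 and FOXF2 together with FOXC1 were minor members in YFP-negative, at 1.26%, 2.00% and 1.55%, and held 6.03%, 7.24% and 4.41% in YFP-high. FOXS1 went the other way, from 8.90% in the parental library to 1.22% in YFP-negative and 0.0692% in YFP-high.

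**Figure D4:**
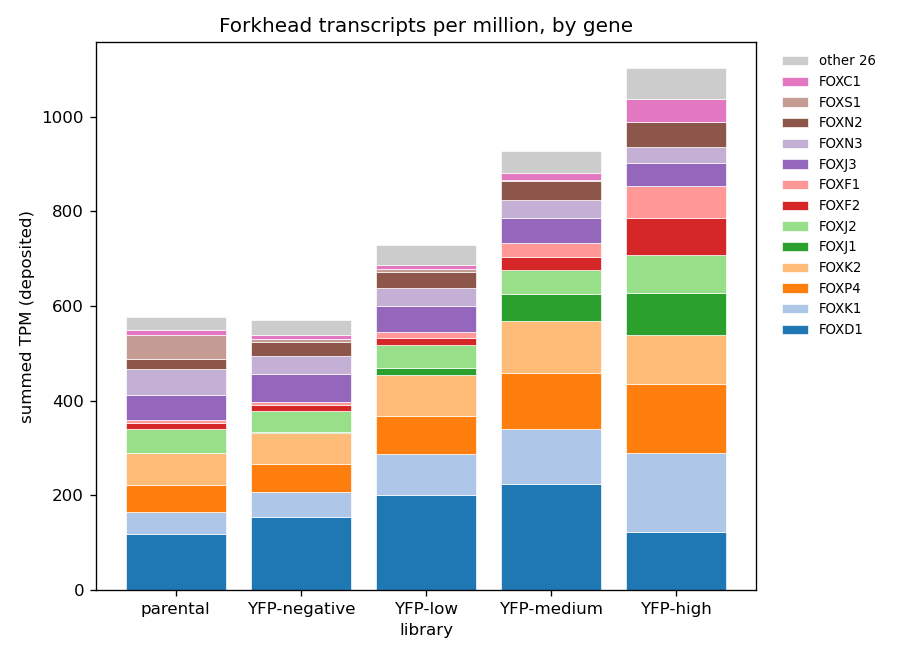
Summed deposited TPM of the 39 forkhead genes in each library (bar height, from 0), split by gene for the 13 genes with the highest TPM and the other 26 together. The bar grows from 571 in YFP-negative to 1102 in YFP-high, FOXD1 is the widest band up to YFP-medium, and the FOXJ1, FOXF1, FOXF2 and FOXC1 bands appear with rising YFP.

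Promoter sequence was looked at because E2F1 is the factor whose level was varied. RefSeq's promoter table, on GRCh38.p14, holds 29 of the 39 members, with 250 bases before to 50 after each start. Among those not matched were FOXA2, FOXC2, FOXE3, FOXF1, FOXH1, FOXJ1, FOXL1, FOXN2 and FOXS1. The E2F letters TTTCCCGC, TTTCGCGC, TTTGCCGC and TTTGGCGC, on either strand, were in 4 of the 29 (13.8%: FOXI1, FOXJ3, FOXN1 and FOXQ1) and in 3.99% of all genes in the table. None of the 6 matched members called higher in YFP-high held them, and the 4 that did were flat or nearly without reads. Without the first T, such letters were in 7 of the 29 (24.1%), FOXK1 the 1 higher member among them, and in 15.3% of all genes. The shorter letters GGCGGGA can overlap an E2F match and, like the former, were added after the values were seen. They were in 8 of the 29 (27.6%) and in 18.0% of all genes. Of the 6 higher members 3 held them, FOXA3, FOXK1 and FOXP4. The others with GGCGGGA were FOXA1, FOXB2, FOXD4, FOXK2 and FOXQ1, which were not called in YFP-high against YFP-negative. Forkhead letters GTAAACA and ATAAACA were in 1 of the 29, FOXP1 (3.45%), and in 8.98% of all genes. Member promoters had a median of 26 CpG sites, against 14 in the whole table. The windows below are 60 bases read 5′ to 3′ on the gene's strand, of the 3 higher members with GGCGGGA, of the flat gene FOXJ3 and of the silent gene FOXQ1 with the longer E2F letters, and of FOXC1 and FOXF2, which rose and held none of the letters. Capitals mark the match, which in FOXP4 lies on the other strand.

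FOXA3, chr19:45864225-45864284: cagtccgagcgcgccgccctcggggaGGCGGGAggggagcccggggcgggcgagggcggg

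FOXK1, chr7:4682113-4682172: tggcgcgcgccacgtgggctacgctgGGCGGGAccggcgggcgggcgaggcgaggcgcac

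FOXP4, chr6:41546321-41546380: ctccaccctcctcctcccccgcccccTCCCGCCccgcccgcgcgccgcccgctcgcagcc

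FOXJ3, chr1:42336054-42336113, minus strand: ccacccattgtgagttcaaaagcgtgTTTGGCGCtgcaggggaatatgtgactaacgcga

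FOXQ1, chr6:1311895-1311954: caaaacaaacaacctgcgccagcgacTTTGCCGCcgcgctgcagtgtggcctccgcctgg

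FOXC1, chr6:1609855-1609914: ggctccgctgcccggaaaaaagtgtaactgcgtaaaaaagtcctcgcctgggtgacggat

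FOXF2, chr6:1389516-1389575: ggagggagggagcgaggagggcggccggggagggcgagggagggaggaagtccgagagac

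In FOXA3 the match began 75 bases before the start, in FOXK1 156 and in FOXP4 34. FOXJ3, whose RNA stayed within 1.12-fold, has several starts in RefSeq, and only the promoter of the most upstream one held the E2F letters. There they began 207 bases before the start, and in FOXQ1, without a read, 177. FOXQ1 also held GGCGGGA, outside the window shown. A match is a string of letters and not a bound site, and binding was not measured in these libraries.

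Of the 4 forkhead genes that the rule leaves out by name, 2 were called higher and 0 lower in YFP-high against YFP-negative. All 4 reached 1 CPM, and of all genes that did, 20.5% were higher and 11.3% lower. Together with FOXD4-like genes, which the name rule does not match, 9 had a row. Of these 9, 2 were higher and 0 lower, where 11.5% of all gene names were higher and 6.19% lower. The median log2 ratio of the 9 was 0.08. FOXO1, a factor restrained by insulin signalling, was 8.05-fold higher in YFP-high than in YFP-negative (7.58 to 8.57), between FOXF2 and FOXF1. FOXO3 was 4.44-fold higher (4.32 to 4.57). FOXM1, a driver of mitotic genes, had 360 CPM (negative), 615 (medium) and 516 (high), with its top in YFP-medium as in FOXD1, FOXD2 and FOXK2, and FOXO4 was not called. The difference between these genes and the members was not tested.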

How the data were processed

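The members and gene lists were chosen with earlier results of these data known. The authors deposited raw read counts per gene name and a second table of TPM, scaled to 1000000 per library. Per the submitters' processing notes, hg19 was the build and HISAT2 2.0.3 and HTSeq 0.6.0 were among the tools, with Trimmomatic 0.36 and CASAVA 1.8.2. The sources used here do not state the annotation, the strand setting or the TPM tool. From the counts, 6 rows that name no gene were dropped (22.3% to 24.3% of reads). The rest became CPM with edgeR 4.0.16 TMM factors (R 4.3.3), and the 15109 genes reaching 1 CPM in any library were kept for shares. Folds carry exact 95% Clopper-Pearson intervals on both counts, which cover counting error only, since PCR copies are not independent molecules. The call rule was tried on simulated counts that held counting error only, with 200 genes changed. That cannot show how often the rule miscalls between single real libraries. Every member is named except 1, which is not reported here on its own. From 25 lists, up to 4 genes with the largest change were nameable, and all called genes where 5 or fewer were called. A few others were named to show list members that were lower or barely read. Alternatives were DESeq2 1.42.0 size factors, total gene counts, no filter, 5 CPM, a pseudocount of 2 CPM, TPM, a 1.5-fold rule and the parental baseline. GGCGGGA, neighbouring genes and helix bases were chosen after seeing the data. Scripts ran in Python 3.11.15 with scipy 1.17.1.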

Additional observations from a re-analysis of the deposited data

How the results depend on the processing

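No paired analysis was possible because each group has 1 library, and none could be left out. DESeq2 size factors, no filter and a filter of 5 CPM kept all 14 counts of called members (7 comparisons, 2 directions) within 1.5 times. Of 104 recomputed member counts, 16 moved by more. With the 1.5-fold rule, higher members numbered 5 in YFP-low and 12 in YFP-medium against YFP-negative, 6 in YFP-medium against YFP-low and 8 in YFP-high against YFP-medium. Lower members numbered 2 in YFP-high against YFP-negative, 1 in YFP-medium against YFP-low, 2 in YFP-high against YFP-medium and 2 in YFP-high against parental. Total gene counts gave 1 lower member in YFP-medium against YFP-low and 2 in YFP-high against parental, and TPM gave 1 in the former. A pseudocount of 2 CPM left 0 higher in YFP-negative against parental and 0 lower in YFP-medium against YFP-negative. With the parental library as baseline, 3 were higher and 1 lower in YFP-low and 10 higher in YFP-medium. No called ratio changed sign, and 14 fell under the size rule, 4 of them with total gene counts, 9 with a pseudocount of 2 CPM and 1 with TPM. Over the genes that reached 1 CPM, 13 of 25 list medians differed by 0.5 or more on the log2 scale from those over all listed genes, which the report gives. The all-gene median shifted with total gene counts by -0.26 (log2) for YFP-high and by -0.21 for YFP-medium, both against YFP-negative.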
